A study of Homo sapiens with 6 samples.

Results

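The data describe 10 human genes of endoplasmic reticulum (ER) stress signalling and of ER-associated degradation (ERAD) in SW480 cells, an established line of colon adenocarcinoma cells. They were matched by gene symbol, with no threshold on a measured value: ERN1, ATF6, XBP1, HERPUD1, SEL1L, SYVN1, DERL1, EDEM1, DNAJB9 and DNAJC3. Each had 1 row among the 20289 genes of the deposited table, and all 10 were among the 12920 genes abundant enough to be tested. RNA was sequenced from 3 libraries labelled MUCP1-FLAG, from cells that overexpress a FLAG-tagged form of the microprotein MUCP1, and from 3 libraries labelled LV-NC, from the control cells. All cells were kept in L-15 medium with serum and antibiotics, and no stressor of the ER is named for either group. By their labels the 3 libraries of a group are biological replicates. No culture day, passage, clone or batch is named, so p-values measure the spread between these libraries, and no promoter is named for the MUCP1 construct. As 0 genes of the table carry the symbol MUCP1, its overexpression could not be checked here.

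The ER folds secreted and membrane proteins. When misfolded proteins build up in it, 3 membrane sensors respond. IRE1, encoded by ERN1, cuts a short stretch out of XBP1 mRNA so that the mRNA then encodes an active transcription factor. ATF6 is cut in the Golgi and its cytosolic part enters the nucleus. PERK, encoded by EIF2AK3, slows translation. Their target genes include chaperones and the ERAD machinery, which selects misfolded proteins, moves them back to the cytosol and hands them to the proteasome. Known binding motifs of this response are the ER stress element (ERSE), read by ATF6 together with the factor NF-Y, the related ERSE-II, and the UPR element, read by XBP1.

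Promoters are shown for the members that rose in MUCP1-FLAG cells, HERPUD1 and XBP1. They are from RefSeq on GRCh38.p14, run 5′ to 3′ on the gene's strand, and cover 250 bases before and 50 bases after the annotated start. HERPUD1 is at chr16:56931892-56932191 on the plus strand. XBP1 is at chr22:28800520-28800819 on the minus strand, and is the one of its 2 listed starts that holds a match. Capitals mark ERSE-II (ATTGGNCCACG) in HERPUD1, at -117 to -107 from the start, and ERSE (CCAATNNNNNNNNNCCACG) in XBP1, at -52 to -34. Neither match overlapped another motif searched.
HERPUD1 promoter: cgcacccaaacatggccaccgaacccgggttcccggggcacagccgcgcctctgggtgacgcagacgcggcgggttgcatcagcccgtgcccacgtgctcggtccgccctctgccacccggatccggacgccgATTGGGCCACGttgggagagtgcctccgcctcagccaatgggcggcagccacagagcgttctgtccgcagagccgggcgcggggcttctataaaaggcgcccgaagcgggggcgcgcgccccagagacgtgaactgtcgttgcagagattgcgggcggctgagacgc
XBP1 promoter: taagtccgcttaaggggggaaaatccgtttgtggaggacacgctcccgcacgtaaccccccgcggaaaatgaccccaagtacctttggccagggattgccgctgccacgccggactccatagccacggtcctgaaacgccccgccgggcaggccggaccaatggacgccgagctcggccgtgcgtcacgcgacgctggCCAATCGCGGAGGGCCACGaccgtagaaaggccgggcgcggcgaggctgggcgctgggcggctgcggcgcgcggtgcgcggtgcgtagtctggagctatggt

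Of the 10 members, 9 had a promoter in the RefSeq table, and of these only HERPUD1 and XBP1 held an ERSE or ERSE-II on either strand. The core of the UPR element, TGACGTGG, was in 0 of the 9. The shorter letters TGACG, the core of a cyclic AMP response element, were in the promoters of HERPUD1, XBP1, ATF6 and EDEM1. They are common, in 24.6% of all 35116 promoters of that length, against 0.0769% for ERSE, 0.0541% for ERSE-II and 0.729% for TGACGTGG. A match describes letters, not a bound site. Only exact letters within this window were searched, so a promoter without a match may still hold a variant of the motif or a site further away.

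The stretch that IRE1 removes is shown because IRE1 is known to act on XBP1 mRNA through it. It has 26 bases, in capitals, at chr22:28796127-28796152 of GRCh38 on the minus strand, with 15 bases on each side. A repeat lets the same removal be written at 7 placements, and the one shown starts and ends inside the loops CNGCAGC, after whose G IRE1 is known to cut. In GENCODE 29 the stretch is in the exons of 4 of the 7 XBP1 transcripts, among them XBP1-201. In 2, among them XBP1-202, the bases on each side of it are joined without it.
XBP1 around the IRE1 cut: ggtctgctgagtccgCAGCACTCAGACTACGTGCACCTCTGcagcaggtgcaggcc
The deposited values are per gene and count the cut and uncut forms together. The ratio of these forms, which would show IRE1 activity, was not analysed here.

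Of the 10 members, 2 were higher in MUCP1-FLAG than in LV-NC cells, HERPUD1 and XBP1, and 0 were lower, at an adjusted p of 0.05 in edgeR's quasi-likelihood test with Benjamini-Hochberg adjustment over all tested genes. Over all tested genes, 8.35% were called higher, 7.71% lower and 16.1% in either direction, that is 1079 and 996 genes, around a median log2 fold change of 0. At an unadjusted p under 0.05, 5 members passed, against 29.4% of all tested genes. The CPM values, read counts put on a common library size with TMM factors, of the 2 groups did not overlap for 3 members, HERPUD1, XBP1 and EDEM1, against 33.1% of all tested genes. The median log2 fold change of the 10 members was 0.01.

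**Figure D1:**
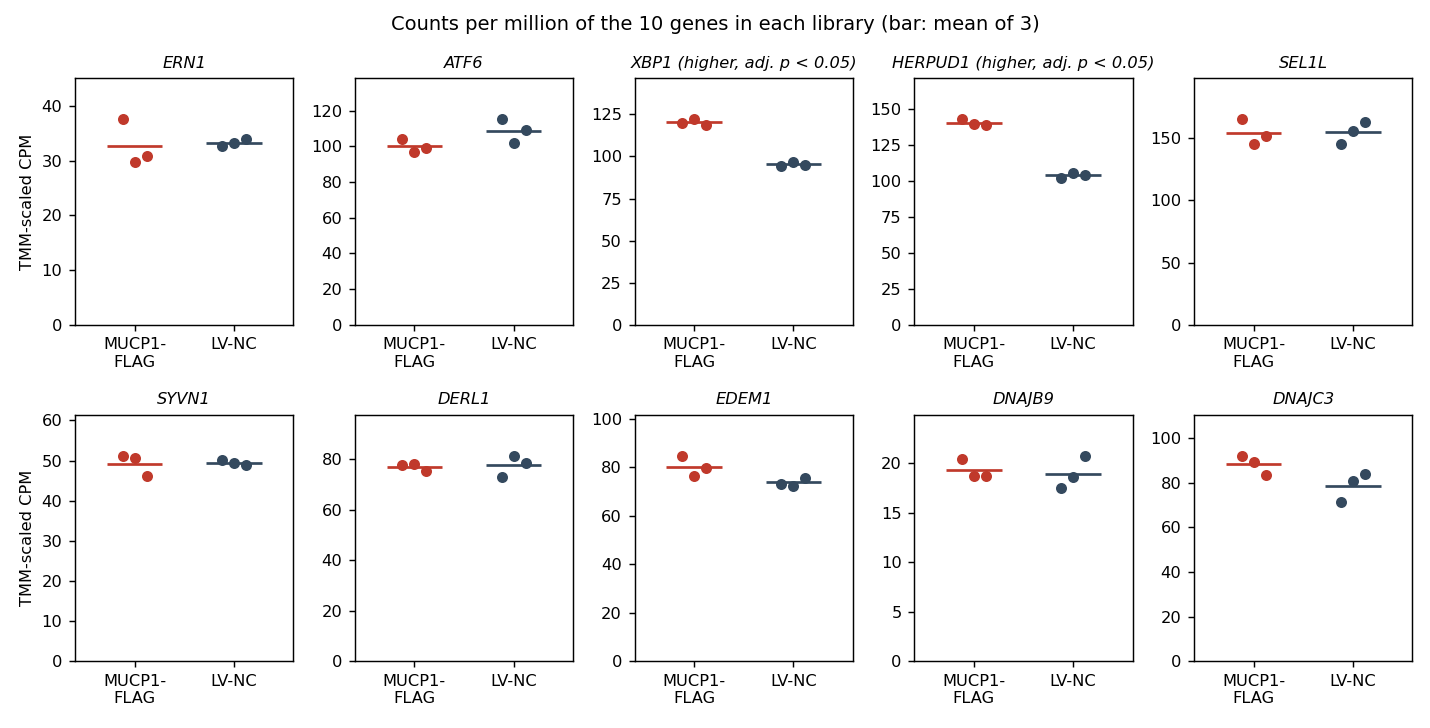
CPM of the 10 genes in each library, with MUCP1-FLAG libraries in red and LV-NC libraries in dark blue, a bar at each mean of 3 libraries and axes that start at 0. XBP1 and HERPUD1 sit higher in all 3 MUCP1-FLAG libraries than in any LV-NC library, while ERN1, SEL1L, SYVN1, DERL1 and DNAJB9 overlap between the groups.

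HERPUD1 (ENSG00000051108, chr16:56932048-56944863) encodes Herp, an ER membrane protein with a ubiquitin-like domain that binds the HRD1 ligase complex and recruits its substrates. It had 143, 140 and 139 CPM in the MUCP1-FLAG libraries, against 102, 106 and 104 CPM in the LV-NC libraries. The 3 values of each group lay within a few CPM of each other and far from those of the other group. HERPUD1 thus averaged 141 ± 2.1 CPM in MUCP1-FLAG and 104 ± 2.12 CPM in LV-NC cells (SD, n = 3 each). It was 35% higher, with a 95% interval from 25.7% to 44.9%, a log2 fold change of 0.43 ± 0.05 (SE) and an edgeR adjusted p of 2.54e-06. As these are bulk cultures, a change in the share of cells that express a gene and a change in its RNA per cell cannot be told apart.

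XBP1 (ENSG00000100219, chr22:28794555-28800597) encodes the transcription factor that IRE1 activates. Its mRNA had 120, 122 and 119 CPM in the MUCP1-FLAG libraries, against 94.6, 96.9 and 95.2 CPM in the LV-NC libraries. Every MUCP1-FLAG library was above every LV-NC library. The means were 120 ± 1.65 CPM in MUCP1-FLAG and 95.6 ± 1.18 CPM in LV-NC cells (SD, n = 3 each), a rise of 25.9% with a 95% interval from 17.2% to 35.3%. The log2 fold change was 0.33 ± 0.05 (SE), with an edgeR adjusted p of 7.03e-05. The 2 calls held under all 15 alternative settings tried, with adjusted p-values of at most 0.00166 for HERPUD1 and 0.00302 for XBP1. In the authors' deposited table, HERPUD1 had a log2 fold change of 0.46 with an FDR of 9.99e-14 and XBP1 one of 0.34 with an FDR of 8.89e-08, and the FDR of the other members there was 0.159 or above.

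The sensors IRE1 and ATF6 were not called at the level of their mRNA. ERN1 (chr17:64039142-64130819), which encodes the kinase and RNase IRE1, had 37.5, 29.8 and 30.9 CPM in MUCP1-FLAG, against 32.7, 33.2 and 33.9 CPM in LV-NC libraries. The LV-NC values lay inside the MUCP1-FLAG range, whose top is MUCP1-FLAG replicate 1. Its log2 fold change was -0.03 ± 0.08 (SE), with a 95% interval from -0.2 to 0.14 and an edgeR adjusted p of 0.853.

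ATF6 (chr1:161766294-161964070), the membrane-bound transcription factor, had 104, 97 and 99 CPM in MUCP1-FLAG, against 115, 102 and 109 CPM in LV-NC libraries. Its groups overlapped, since MUCP1-FLAG replicate 1 was above LV-NC replicate 2. The log2 fold change was -0.12 ± 0.06 (SE), with an unadjusted p of 0.0467 and an edgeR adjusted p of 0.163, which does not pass. The 95% interval of its difference ran from -15% to -0.132%, before adjustment for the number of genes.

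The core of the HRD1 complex was not called either. SEL1L (chr14:81471549-81533861) is the adaptor that stabilises the ligase and links it to the lumen, and had 165, 145 and 152 CPM in MUCP1-FLAG, against 145, 156 and 163 CPM in LV-NC libraries. SYVN1 (chr11:65121780-65134533), which encodes the ubiquitin ligase HRD1, had 51.1, 50.6 and 46.1 CPM in MUCP1-FLAG, against 50.1, 49.5 and 48.8 CPM in LV-NC libraries. DERL1 (chr8:123013164-123042423), which encodes the membrane protein Derlin-1 of the retrotranslocation machinery, had 78, 78.1 and 75.4 CPM in MUCP1-FLAG, against 73.1, 81.3 and 78.5 CPM in LV-NC libraries. In all 3 genes the ranges of the groups overlapped, and no group was uniformly higher. The log2 fold change was -0.01 ± 0.06 (SE) for each of them. The 95% intervals ran from -0.12 to 0.11 for SEL1L, from -0.14 to 0.12 for SYVN1 and from -0.13 to 0.11 for DERL1, which hold neither the HERPUD1 nor the XBP1 estimate. The edgeR adjusted p was 0.948 for SEL1L, 0.962 for SYVN1 and 0.937 for DERL1. A p above the threshold does not show that levels were equal.

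EDEM1 (chr3:5187646-5219957), a mannosidase-like protein that directs misfolded glycoproteins to ERAD, had 84.5, 76.5 and 79.7 CPM in MUCP1-FLAG, against 73.1, 72.3 and 75.7 CPM in LV-NC libraries. Its groups did not overlap, by a margin of less than 1 CPM between MUCP1-FLAG replicate 2 and LV-NC replicate 3. The log2 fold change of 0.12 ± 0.06 (SE) had an unadjusted p of 0.0433 and an edgeR adjusted p of 0.155, which does not pass, and a 95% interval of 0.279% to 18% for the difference.

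The remaining members are J-domain proteins, partners of the chaperone BiP in the ER lumen. DNAJC3 (chr13:95677139-95794989) encodes P58IPK, and had 91.8, 89.1 and 83.5 CPM in MUCP1-FLAG, against 71.2, 80.8 and 84 CPM in LV-NC libraries. The groups met only at MUCP1-FLAG replicate 3 and LV-NC replicate 3. Its log2 fold change was 0.16 ± 0.06 (SE), with a 95% interval from 0.03 to 0.29, an unadjusted p of 0.0171 and an edgeR adjusted p of 0.0841. It passed in 2 alternatives, at adjusted p-values of 0.0115 when LV-NC replicate 3 was left out and 0.0424 with no filter on low counts, and over the 15 alternatives its adjusted p ran from 0.0115 to 0.412.

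DNAJB9 (chr7:108569568-108574850), which encodes ERdj4 and brings BiP to IRE1, had 20.4, 18.7 and 18.7 CPM in MUCP1-FLAG, against 17.5, 18.6 and 20.7 CPM in LV-NC libraries. The LV-NC range held every MUCP1-FLAG value. Its log2 fold change was 0.02 ± 0.09 (SE), with a 95% interval from -0.16 to 0.2 and an edgeR adjusted p of 0.904. DNAJB9 had the lowest counts of the members, from 336 to 430 reads per library.

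**Figure D2:**
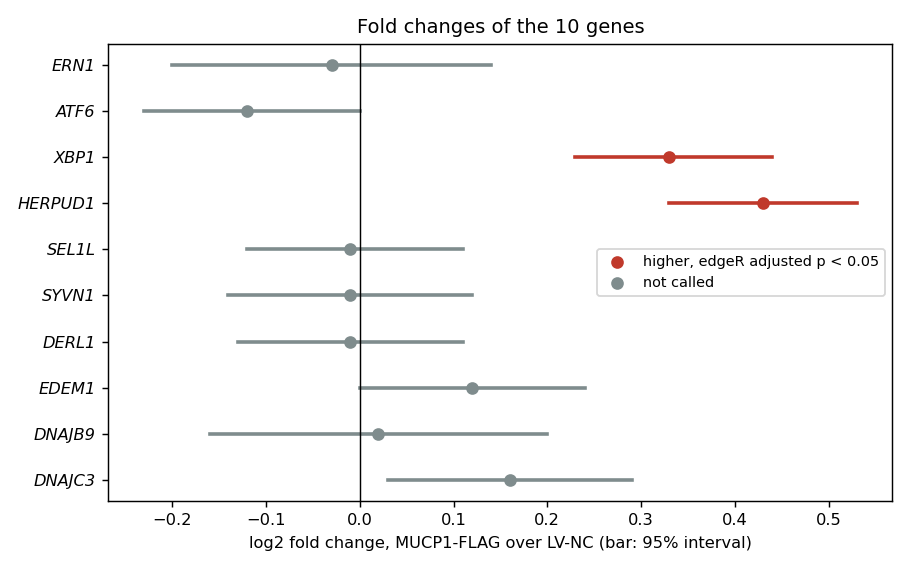
Log2 fold change of each of the 10 genes, MUCP1-FLAG over LV-NC, from edgeR, with a bar for the 95% interval and red for genes called higher. Only XBP1 at 0.33 and HERPUD1 at 0.43 were called, and the 3 genes of the HRD1 core lie at -0.01.

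HERPUD1 and XBP1 were also set against the other 8 members in the same library, which removes the scale of the library. These 8 are the members that were not called, so the ratios restate the calls and are not separate support for them. Per 100 CPM of the summed other members, HERPUD1 stood at 22.6, 24 and 23.7 CPM in MUCP1-FLAG, against 17.7, 17.9 and 17 CPM in LV-NC libraries. XBP1 stood at 19, 20.9 and 20.3 CPM in MUCP1-FLAG, against 16.4, 16.3 and 15.5 CPM in LV-NC libraries. For both genes every MUCP1-FLAG library was above every LV-NC library, while the sums themselves overlapped, at 585 to 632 CPM in MUCP1-FLAG and 577 to 613 CPM in LV-NC.

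Levels of different genes can be compared by FPKM, in which the authors scaled counts by gene length and by library size. HERPUD1 was the most abundant member per length, at 78.8 ± 1.01 FPKM in MUCP1-FLAG and 57.3 ± 1.62 FPKM in LV-NC cells (SD, n = 3 each). XBP1 came next, at 67 ± 0.548 FPKM in MUCP1-FLAG and 52.9 ± 0.69 FPKM in LV-NC cells. ATF6 followed at 31.2 ± 1.37 FPKM in MUCP1-FLAG and 35.1 ± 2.15 FPKM in LV-NC cells. Below these lay DERL1, SEL1L, SYVN1, DNAJC3, EDEM1 and DNAJB9 in falling order, with LV-NC means from 25 to 7.92 FPKM. ERN1 was lowest, at 4.31 ± 0.601 FPKM in MUCP1-FLAG and 4.43 ± 0.0681 FPKM in LV-NC cells. The order of the members was the same in both groups. In LV-NC libraries the FPKM ranges of DERL1 and SEL1L overlapped, so these neighbours did not differ beyond their spread, and no other neighbours overlapped there. In MUCP1-FLAG libraries it was SYVN1 and DNAJC3 that overlapped, and no other neighbours. The FPKM values of ATF6 did not overlap between the groups, at 29.8 to 32.5 FPKM in MUCP1-FLAG and 32.8 to 37.1 FPKM in LV-NC libraries, while its CPM values did. Those of EDEM1 overlapped between the groups, unlike its CPM values, at 12.4 to 13.8 FPKM in MUCP1-FLAG and 12.3 to 12.7 FPKM in LV-NC libraries.

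**Figure D3:**
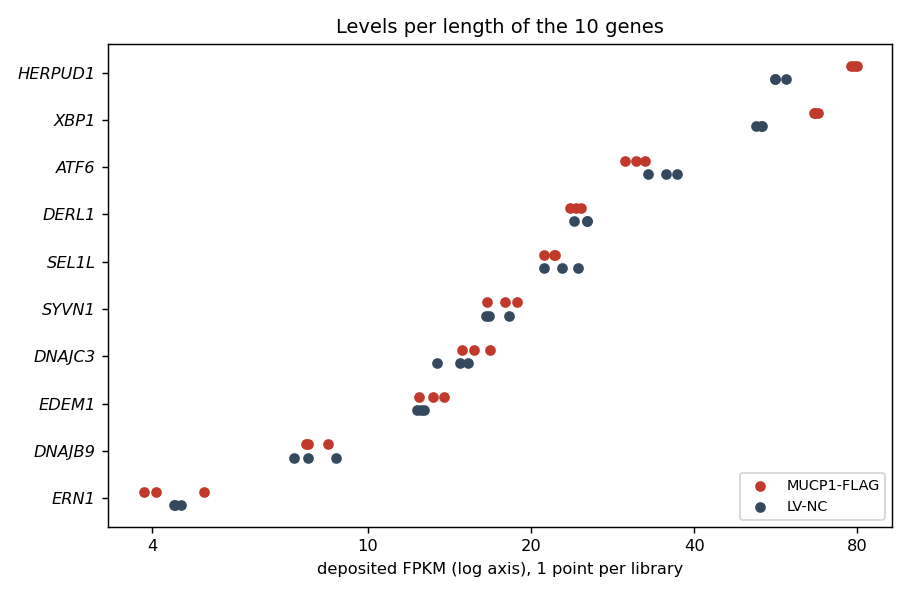
Deposited FPKM of the 10 genes on a log axis, 1 point per library, with MUCP1-FLAG in red above LV-NC in dark blue. HERPUD1 and XBP1 lead in both groups and have all MUCP1-FLAG points to the right of all LV-NC points, and ERN1 is lowest.

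Reads can be shared where genes overlap, and no source used here gives the strand setting of the read counting. In GENCODE 29 the exons of ERN1, ATF6, XBP1, HERPUD1, SEL1L and DNAJC3 overlap no exon of another gene. SYVN1 shares 398 exonic bases with FAU on the same strand and 356 with MRPL49, EDEM1 shares 653 with an antisense gene, DERL1 shares 396 with TBC1D31 and DNAJB9 shares 183 with THAP5, so their values are less certain. The gene length implied by counts and FPKM together varied between libraries, with a coefficient of variation of 6.42% for SYVN1, 6.15% for SEL1L and 0.0302% to 2.7% for the other members.

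Total counts were 17333329 to 23282604 in MUCP1-FLAG and 18867369 to 21534908 in LV-NC libraries, with 336 to 3370 reads on a member in a library. Mitochondrially encoded RNA took 5.91% to 6.24% of counts in MUCP1-FLAG and 6.1% to 6.61% in LV-NC libraries. The first principal component, with 42.5% of the variance, parted the groups, and the next, with 17.7%, spread the LV-NC libraries. Of 13 markers of colonic epithelium and SW480 cells, 9 averaged at least 1 CPM, with KRT20, CDX1, CDH17 and LGR5 below 0.1 CPM. Their sum was 8020 to 8250 CPM in MUCP1-FLAG and 7400 to 8110 CPM in LV-NC libraries. CDH1 among them had 14.7, 15.1 and 14.9 CPM in MUCP1-FLAG, against 30.9, 31.9 and 30.7 CPM in LV-NC libraries, and EPCAM had 198, 208 and 200 CPM in MUCP1-FLAG, against 248, 249 and 264 CPM in LV-NC libraries. VIL1 was also lower in every MUCP1-FLAG library than in any LV-NC library, while KRT18, KRT19, AXIN2 and VIM were higher in this way. The values of KRT8 and CDX2 overlapped between the groups. The part of these marker differences in the results on the members was not tested. A mean of at least 1 CPM was found for 0 of 6 fibroblast markers, 0 of 6 blood cell markers and 1 of 4 endothelial markers. The last was VWF, at 2.26 to 4.17 CPM in MUCP1-FLAG and 2.41 to 3.3 CPM in LV-NC libraries. Of 6 secretory and plasma cell markers 1 averaged at least 1 CPM, and SPDEF, AGR2, JCHAIN and IGKC were below 0.1 CPM. The sum of the 6 was 96.3 to 105 CPM in MUCP1-FLAG and 93 to 105 CPM in LV-NC libraries.

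Around the members, 11 lists of genes of the same pathways held 235 distinct tested genes. Some genes stand in several lists, so the counts of the lists are not separate. Without the members, 39 of 225 were called higher and 11 lower, and their median log2 fold change was 0.04, beside 1079 higher and 996 lower of 12920 and a median of 0 for all genes. The counts moved with the libraries. Leaving out MUCP1-FLAG replicate 3 gave 24 higher and 4 lower, and leaving out LV-NC replicate 2 gave 25 higher and 6 lower. The lower count was also 6 and 5 when MUCP1-FLAG replicate 1 or 2 was left out. Fewer genes passed when deposited FPKM values were tested. Of the genes named next, EIF2AK3, NFYA, PTPN1, TRAF2, MAN1A1, CRELD2, DERL2, UBE2D1, VCP, USP13 and STC2 did not pass in limma on log2(FPKM + 1), with adjusted p-values of 0.0586 to 0.236. UBE2G2 and BAG6 missed it only there without a filter on low values, at 0.0546 and 0.0719, and DNAJC1 missed it in DESeq2, at 0.0528.

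**Figure D4:**
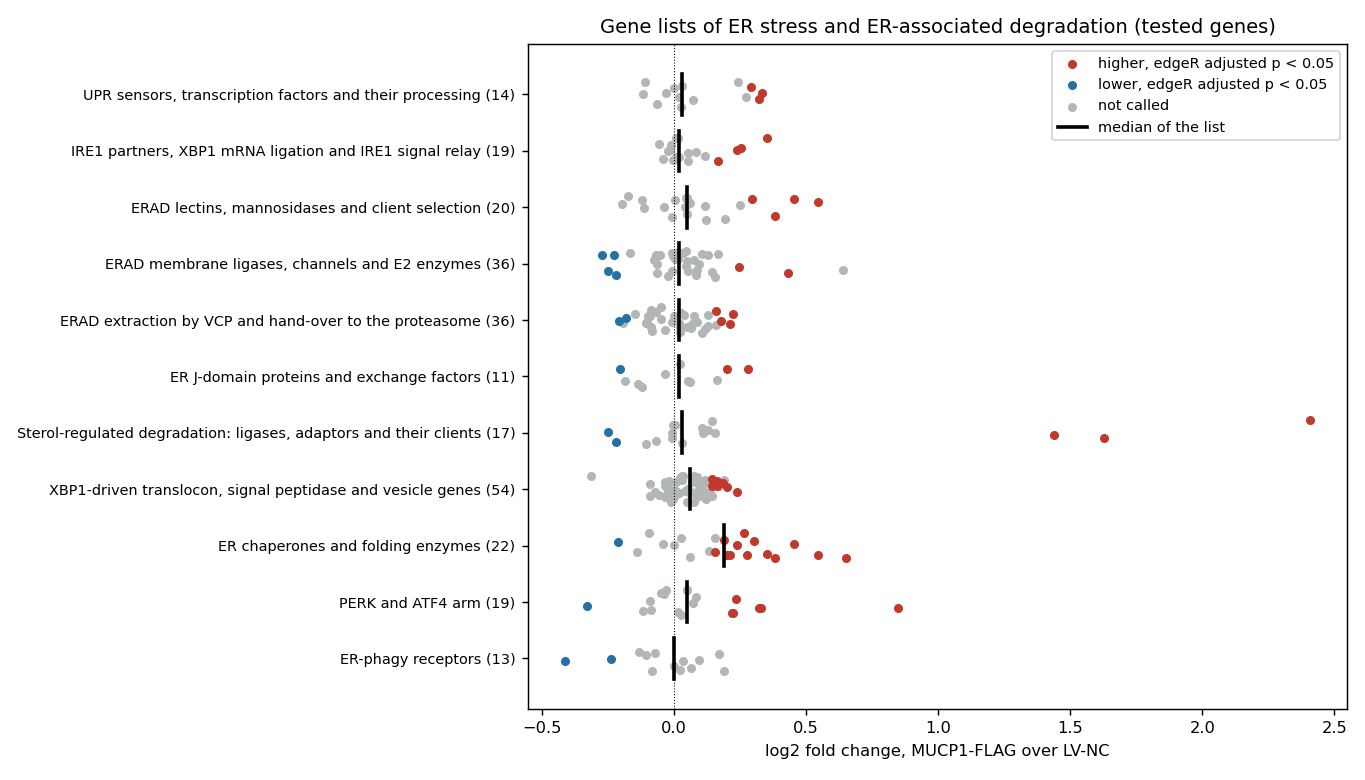
Log2 fold change of every tested gene in 11 lists, MUCP1-FLAG over LV-NC, with the number tested in brackets, a black bar at the list's median, and red or blue for genes called higher or lower. ER chaperones stand furthest to the right, with 13 of 22 called higher and a median of 0.19, while the medians of the other lists lie between 0 and 0.06.

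Among 14 tested sensors and transcription factors with the proteins that process them, 3 were called higher and 0 lower, with a median log2 fold change of 0.03. Next to XBP1 these were EIF2AK3, the sensor PERK, and NFYA, a subunit of NF-Y. EIF2AK3 averaged 39.5 ± 3.11 CPM in MUCP1-FLAG and 31.6 ± 2.4 CPM in LV-NC cells (SD, n = 3 each), a log2 fold change of 0.32 ± 0.08 with an edgeR adjusted p of 0.00576, which became 0.057 without MUCP1-FLAG replicate 1. NFYA averaged 52.2 ± 3.03 CPM in MUCP1-FLAG and 42.7 ± 4.43 CPM in LV-NC cells, a log2 fold change of 0.29 ± 0.07 with an adjusted p of 0.0081, which missed the threshold at 0.069 and 0.0679 when MUCP1-FLAG replicate 3 or LV-NC replicate 2 was left out. ATF6B, the paralogue of ATF6, was not called, at a log2 fold change of -0.11.

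Among 19 partners of IRE1, ligation factors of XBP1 mRNA and relays of the IRE1 signal, 4 were called higher and 0 lower, with a median of 0.02. They were PDIA6 and P4HB, disulfide isomerases, PTPN1, an ER-bound phosphatase, and TRAF2, the adaptor that links IRE1 to JNK. PDIA6 and P4HB also stand in the list of ER chaperones given below. PDIA6 averaged 568 ± 17 CPM in MUCP1-FLAG and 445 ± 1.46 CPM in LV-NC cells (SD, n = 3 each), a log2 fold change of 0.35 ± 0.04 with an edgeR adjusted p of 6.29e-06. The calls of PTPN1 and TRAF2 were lost on leaving out single libraries: MUCP1-FLAG replicate 2 or LV-NC replicate 2 for both, MUCP1-FLAG replicate 1 for PTPN1 and MUCP1-FLAG replicate 3 for TRAF2, with adjusted p-values of 0.0517 to 0.107. Without MUCP1-FLAG replicate 2 or LV-NC replicate 2 the list had 2 higher.

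Among 20 genes of client selection for ERAD, 4 were called higher and 0 lower, with a median of 0.05. Of the called genes, MANF, SDF2L1 and CRELD2 also stand in the list of ER chaperones given below. OS9, ERLEC1, EDEM2, EDEM3, MAN1B1, UGGT1 and UGGT2 of this list were not called, with log2 fold changes from -0.2 to 0.06. MANF, a secreted ER stress factor that binds BiP, averaged 77.6 ± 1.93 CPM in MUCP1-FLAG and 56.6 ± 1.53 CPM in LV-NC cells (SD, n = 3 each), a log2 fold change of 0.45 ± 0.06 with an edgeR adjusted p of 6.85e-06. SDF2L1, a partner of ER J-domain proteins, averaged 10.8 ± 0.569 CPM in MUCP1-FLAG and 7.43 ± 0.495 CPM in LV-NC cells, a log2 fold change of 0.55 ± 0.11 with an adjusted p of 0.00165. MAN1A1, a Golgi mannosidase, and CRELD2, an ER protein induced by stress, also passed, with log2 fold changes of 0.3 ± 0.07 and 0.38 ± 0.1. Without LV-NC replicate 2, MAN1A1 was no longer called, at an adjusted p of 0.0602. CRELD2 missed the threshold at 0.0774 and 0.0692 when MUCP1-FLAG replicate 2 or 3 was left out. Without LV-NC replicate 1 the list had 2 lower.

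Among 36 membrane ligases, channels and E2 enzymes, 2 were called higher and 4 lower, with a median of 0.02. HERPUD1 and DERL2, a paralogue of DERL1, were the higher ones. DERL2 averaged 55.9 ± 3.13 CPM in MUCP1-FLAG and 47.1 ± 1.31 CPM in LV-NC cells (SD, n = 3 each), a log2 fold change of 0.25 ± 0.06 with an edgeR adjusted p of 0.00862, which became 0.0659 without MUCP1-FLAG replicate 1. UBE2G2, the E2 enzyme that works with HRD1 and the ligase gp78, fell to 86.7 ± 5.84 CPM in MUCP1-FLAG, against 103 ± 1.17 CPM in LV-NC cells, a log2 fold change of -0.25 ± 0.06 with an adjusted p of 0.00377. The E2 enzyme UBE2D1 was also lower, at a log2 fold change of -0.27 ± 0.08, and lost its call without MUCP1-FLAG replicate 2, MUCP1-FLAG replicate 3 or LV-NC replicate 2, with adjusted p-values of 0.0679 to 0.108. The 4 lower calls became 1 when any one of those 3 libraries was left out and 2 without MUCP1-FLAG replicate 1 or LV-NC replicate 3.

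Among 36 genes of extraction by the ATPase VCP and hand-over to the proteasome, 4 were called higher and 2 lower, with a median of 0.02. BAG6, a chaperone that keeps extracted proteins soluble, fell to 141 ± 5.36 CPM in MUCP1-FLAG, against 163 ± 6.85 CPM in LV-NC cells (SD, n = 3 each), a log2 fold change of -0.21 ± 0.05 with an edgeR adjusted p of 0.00651. VCP itself was higher, at a log2 fold change of 0.16 ± 0.04, and so was the deubiquitinase USP13, at 0.22 ± 0.06. Both lost their call without MUCP1-FLAG replicate 3, at adjusted p-values of 0.0971 for VCP and 0.0927 for USP13, and without LV-NC replicate 2, at 0.0676 for VCP and 0.0553 for USP13. VCP also lost it without MUCP1-FLAG replicate 1, at 0.0638. The list had 0 higher without MUCP1-FLAG replicate 3, 1 without LV-NC replicate 2, and 2 when MUCP1-FLAG replicate 1 or 2 was left out. The 2 lower calls became 1 when any one of these 4 libraries was left out.

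Of 11 ER J-domain proteins, BiP and its exchange factors, 2 were called higher and 1 lower, with a median of 0.02. DNAJB11, which encodes ERdj3, averaged 177 ± 7.42 CPM in MUCP1-FLAG and 145 ± 5.36 CPM in LV-NC cells (SD, n = 3 each), a log2 fold change of 0.28 ± 0.05 with an edgeR adjusted p of 0.000451. HSPA5, which encodes BiP, averaged 1160 ± 15.7 CPM in MUCP1-FLAG and 1010 ± 19.5 CPM in LV-NC cells, a log2 fold change of 0.2 ± 0.04 with an adjusted p of 0.00218. HSPA5 also stands in the list of ER chaperones given below. The lower gene was DNAJC1, at -0.2 ± 0.06, and it was not called without any one of the MUCP1-FLAG libraries or without LV-NC replicate 2, with adjusted p-values of 0.0623 to 0.142. HYOU1 and SIL1, exchange factors of BiP, were not called, at log2 fold changes of 0.06 for HYOU1 and -0.13 for SIL1. Without LV-NC replicate 1 the list had 2 lower.

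The list with the largest share of calls was that of ER chaperones and folding enzymes, with 13 of 22 higher, 1 lower and a median log2 fold change of 0.19. CALR, the lectin chaperone calreticulin, averaged 786 ± 13.3 CPM in MUCP1-FLAG and 501 ± 19.2 CPM in LV-NC cells (SD, n = 3 each), a log2 fold change of 0.65 ± 0.04 with an edgeR adjusted p of 1.34e-09. HSP90B1, which encodes GRP94, averaged 746 ± 5.43 CPM in MUCP1-FLAG and 604 ± 26.3 CPM in LV-NC cells, a log2 fold change of 0.3 ± 0.04 with an adjusted p of 5.12e-05. The higher count stayed between 11 and 13 with any 1 library left out, and the 1 lower call was lost without MUCP1-FLAG replicate 1, MUCP1-FLAG replicate 3 or LV-NC replicate 2, giving 0.

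Of 54 translocon, signal peptidase and vesicle genes known as XBP1 targets or their partners, 7 were called higher and 0 lower, with a median of 0.06. RPN2, a subunit of the oligosaccharyltransferase, averaged 464 ± 7.3 CPM in MUCP1-FLAG and 405 ± 11 CPM in LV-NC cells (SD, n = 3 each), a log2 fold change of 0.2 ± 0.04 with an edgeR adjusted p of 0.00276. SSR2, a subunit of the translocon-associated complex, had a log2 fold change of 0.24 ± 0.05 with an adjusted p of 0.00331. The higher count was 2 without any one of the MUCP1-FLAG libraries or without LV-NC replicate 2, and 1 gene was lower without LV-NC replicate 2 or LV-NC replicate 3.

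Of 19 tested genes of the PERK and ATF4 arm, 6 were called higher and 1 lower, with a median of 0.05. The transcription factor ATF4 averaged 520 ± 17.7 CPM in MUCP1-FLAG and 447 ± 15.2 CPM in LV-NC cells (SD, n = 3 each), a log2 fold change of 0.22 ± 0.04 with an edgeR adjusted p of 0.00176. Its target STC2 had a log2 fold change of 0.24 ± 0.05 with an adjusted p of 0.00495. PPP1R15A, which encodes the phosphatase subunit GADD34 that reverses the PERK signal, fell to 450 ± 16.8 CPM in MUCP1-FLAG, against 567 ± 25 CPM in LV-NC cells, a log2 fold change of -0.33 ± 0.05 with an adjusted p of 3.3e-05. DDIT3, which encodes the stress factor CHOP, was not called, at a log2 fold change of 0.05 with an adjusted p of 0.606. ASNS, TRIB3, CHAC1, SESN2, SLC7A11 and XPOT of this list were not called either. Their log2 fold changes ran from -0.09 to 0.05, with edgeR adjusted p-values of 0.199 to 0.864. The list had 3 higher without MUCP1-FLAG replicate 2, and 2 lower without LV-NC replicate 1.

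The machinery of sterol-regulated degradation shares ligases with ERAD, and its clients moved most. Of 17 tested genes, 3 were called higher and 2 lower, and the median log2 fold change was 0.03. The 3 higher genes are clients of this degradation. INSIG1, itself degraded through the ligase gp78, averaged 162 ± 22.1 CPM in MUCP1-FLAG and 30.5 ± 3.29 CPM in LV-NC cells (SD, n = 3 each), a log2 fold change of 2.41 ± 0.11 with an edgeR adjusted p of 1.19e-06. SQLE, squalene epoxidase, averaged 175 ± 16.7 CPM in MUCP1-FLAG and 64.6 ± 2.92 CPM in LV-NC cells, a log2 fold change of 1.44 ± 0.07 with an adjusted p of 1.06e-11. The lower genes include UBE2G2, given above. The 2 lower calls became 1 on leaving out any library other than LV-NC replicate 1.

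ER stress elements are rare in promoters, and genes with a match were described as a group. Of the 35116 RefSeq promoters 46, 0.131%, held an ERSE or ERSE-II on either strand, and they belonged to 30 tested genes. Of these, 13 were called higher, 43.3%, and 0 lower, with a median log2 fold change of 0.15. Of all 10299 tested genes with a promoter in the table, 863 were higher, 8.38%, and 769 lower, with a median of 0. ERSE and ERSE-II gave similar counts, with 7 of 16 and 6 of 14 higher. Of 130 tested genes with the UPR element core TGACGTGG, 8 were higher, 6.15%, and 8 lower. This core has fewer fixed bases than ERSE or ERSE-II and is in 0.729% of promoters, so these counts are not like for like. The part of the motif's length in the difference was not tested. XBP1, HERPUD1 and most of the other genes called higher here also stand in the lists above, so the counts are not separate. HYOU1, whose promoter holds ERSE-II, was not called. The matched letters of some genes called higher are shown beside those of the 2 members, with capitals for the fixed bases of the motif, on the strand on which each was found.
XBP1 ERSE: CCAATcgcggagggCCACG
CALR ERSE: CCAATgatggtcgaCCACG
HSPA5 ERSE: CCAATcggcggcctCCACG
PDIA6 ERSE: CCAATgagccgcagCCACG
HERPUD1 ERSE-II: ATTGGgCCACG
SDF2L1 ERSE-II: ATTGGtCCACG

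**Figure D5:**
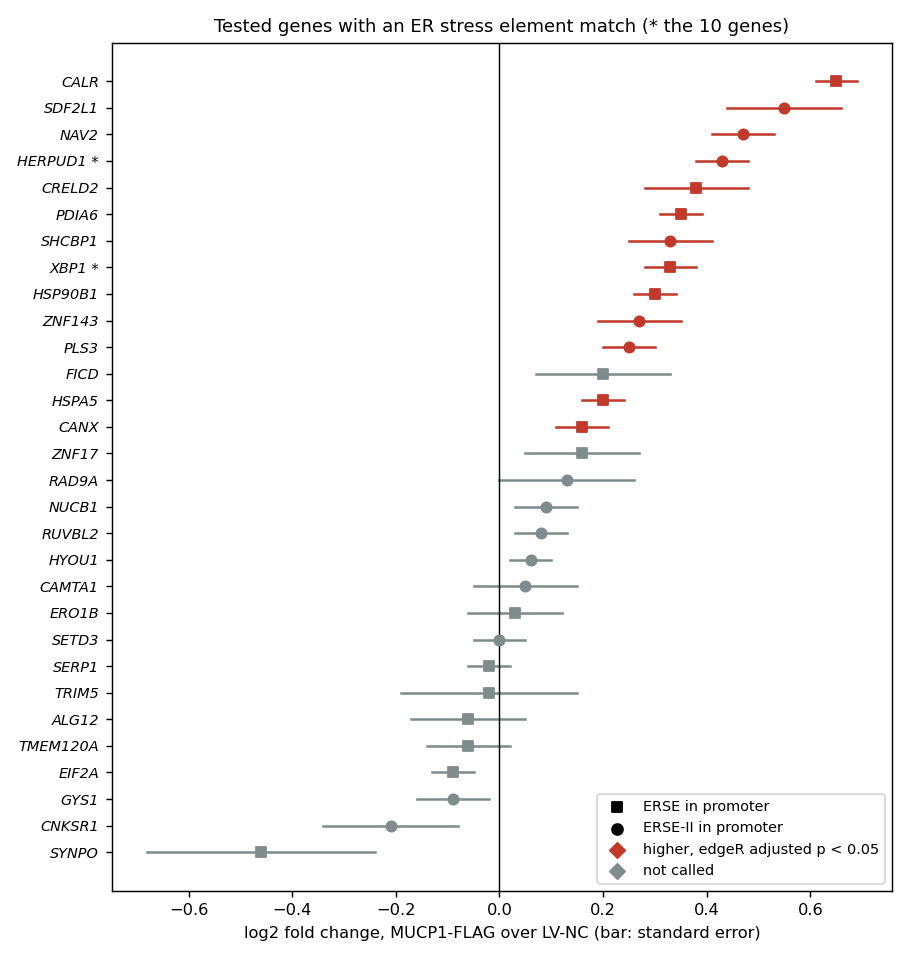
Log2 fold change of the 30 tested genes whose promoter holds an ERSE (squares) or ERSE-II (circles), MUCP1-FLAG over LV-NC, with a bar for the standard error and red for genes called higher. The 13 called genes range up to CALR at 0.65, and HERPUD1 and XBP1, marked by asterisks, lie among them at 0.43 and 0.33.

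The genes most like HERPUD1 across the 6 libraries were sought among 11530 genes with a mean of at least 2 CPM, by the Euclidean distance between log2 CPM profiles, each centred on its own mean. Among the nearest were LUC7L2 at a distance of 0.0745 and BCL2L15 at 0.0755. LUC7L2 had 100, 96.8 and 94.8 CPM in MUCP1-FLAG, against 73.5, 74.1 and 70.3 CPM in LV-NC libraries. BCL2L15 is the less certain of these, since its deposited FPKM values ran from 45.6 to 69.4 in MUCP1-FLAG and from 30 to 57.7 in LV-NC libraries and overlapped, unlike its counts. A short distance over 6 libraries in 2 groups mostly ranks genes by the size of their difference between the groups.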

How the data were processed

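RNA of SW480 cells was extracted with Trizol and made into libraries with a Hieff NGS mRNA kit, per the labels' protocols. Tools named in the submitters' processing notes are fastp, HISAT2, featureCounts and DESeq2, with no version or role, and the build named is GRCh38. Per the file headers, the authors deposited 1 table that gives each gene's read count and FPKM in each of the 6 libraries. The same deposited table holds the authors' own log2 fold change, p-value and FDR per gene, and no source used here names the test behind these.

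Counts were tested with edgeR 4.0.16 in R 4.3.3 (robust quasi-likelihood fit, F test, TMM scaling, no covariate). The function filterByExpr, with a minimum count of 10, kept 12920 genes, over which p-values were adjusted by the Benjamini-Hochberg method. CPM values carry the TMM factors and are mean ± SD of 3 libraries. Standard errors were obtained as the fold change over the root of F, and 95% intervals from that error. The common biological coefficient of variation was 0.0521. Between replicates of a group, chi-square per degree of freedom was 2.58 to 8.22, above sampling noise. The fits were tested on simulated data with known changes, all of them larger than the changes of the members.

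Members and lists were chosen with earlier results of these data known. Named were all members, from each list the 4 called genes of smallest adjusted p, and the 3 genes nearest to HERPUD1. Of those that the rule gave, UBE4B, DDOST and SEC61B are not described, and some others are not reported here. ATF6B, HYOU1, DDIT3, CDH1, EPCAM and the other genes compared between the groups outside this rule were added after their values were seen. That holds also for NAV2, PLS3, SHCBP1 and ZNF143 in the closing section. Alternatives were RLE and upper quartile scaling, DESeq2 1.42.0, other filters, limma 3.58.1 on log2(FPKM + 1) or log2(FPKM + 0.1), a replicate block and leaving out each library. Gene coordinates and exon overlaps are from GENCODE 29. Promoters are from RefSeq (GRCh38.p14), matched by symbol.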

Additional observations from a re-analysis of the deposited data

How the results depend on the processing

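Under all 15 alternatives HERPUD1 and XBP1 stayed called higher, and 0 members were called lower. The counts over all genes, 1079 higher and 996 lower, were 517 and 553 with limma on log2(FPKM + 1), 510 and 543 on log2(FPKM + 0.1), and 382 and 415 on log2(FPKM + 1) with no filter. The list genes other than members, 39 higher and 11 lower, became 20 and 5, 19 and 5, and 18 and 2 in those fits, and 38 and 7 with DESeq2. The cause was not tested. Leaving out 1 library gave 639 to 1323 genes higher and 624 to 1213 lower, 2 to 3 members higher and 0 lower, and 24 to 42 list genes higher and 4 to 15 lower. The lowest counts came without MUCP1-FLAG replicate 3, and the higher count over all genes was 671 without LV-NC replicate 2.

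The direction of genes near 0 turned in some settings. In the 3 limma fits SYVN1 had a log2 fold change of 0.05 and HYOU1, no member, one of -0.05. With single libraries left out, the log2 fold change ran from -0.14 to 0.04 for ERN1, from -0.06 to 0.03 for SEL1L, from -0.04 to 0.04 for SYVN1, from -0.05 to 0.03 for DERL1, from -0.03 to 0.09 for DNAJB9 and from 0 to 0.09 for DDIT3, and none of these genes was called in any of those fits. No member's direction turned under RLE or upper quartile scaling, where the median of all genes was 0 and -0.02.

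No pairing of same-numbered libraries is named, and their deviations from the group means correlated at 0.04, 0.05 and 0 across genes. Between libraries of different number the correlations ran from -0.05 to 0.01. Whether same-numbered libraries shared a day or batch cannot be told from these values. With the replicate block, 1005 genes were higher and 954 lower, with 2 and 0 members and 35 and 9 list genes. Each member had 336 or more reads in every library. DNAJB9, with the fewest reads, had the largest SE of the members, 0.09, and the part of depth in this was not tested. With 3 libraries a group, members that were not called have 95% intervals that still hold changes of several percent.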

Other observations

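Receptors and regulators of ER-phagy, which deliver ER pieces to the lysosome, form another outlet for ER proteins. Of 13 tested, 0 were called higher and 2 lower in MUCP1-FLAG cells, with a median log2 fold change of 0. CALCOCO1 fell to 65.2 ± 1.94 CPM in MUCP1-FLAG, against 86.6 ± 4.95 CPM in LV-NC cells (SD, n = 3 each), a log2 fold change of -0.41 ± 0.06 with an edgeR adjusted p of 3.37e-05. CCPG1 fell to 63.9 ± 4.24 CPM in MUCP1-FLAG, against 75.3 ± 3.36 CPM in LV-NC cells, a log2 fold change of -0.24 ± 0.06 with an adjusted p of 0.00938. CCPG1 was no longer called when MUCP1-FLAG replicate 2 or 3 was left out, with adjusted p-values of 0.0718 and 0.0762. The list then had 1 lower, and without MUCP1-FLAG replicate 2 it had 1 higher. In the 3 limma fits on FPKM neither gene passed, with adjusted p-values of 0.0834 to 0.156 for CALCOCO1 and 0.0885 to 0.139 for CCPG1.

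Outside the ER lists, 11 tested genes held an ERSE-II in their promoter, of which 4 were called higher in MUCP1-FLAG cells and 0 lower. Of all 10299 tested genes with a promoter, 863 were higher, 8.38%, and 769 lower. Of 7 tested genes outside the lists with an ERSE, 0 passed in edgeR in either direction, and 1 had an unadjusted p under 0.05. NAV2 had a log2 fold change of 0.47 ± 0.06 with an edgeR adjusted p of 6.8e-06, and PLS3, an actin-bundling protein, one of 0.25 ± 0.05 with an adjusted p of 0.00159. Both passed in all 15 alternatives. SHCBP1 and ZNF143 had log2 fold changes of 0.33 ± 0.08 and 0.27 ± 0.08. They passed in 11 and 8 of the 15 alternatives, and both lost their call without LV-NC replicate 2, at adjusted p-values of 0.0555 and 0.159. ZNF143 also lost it when MUCP1-FLAG replicate 1 or 3 was left out, at 0.0704 and 0.111.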
